A study of Mus musculus with 14 samples.

Results

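A total of 212 mouse genes carried symbols of the RIKEN cDNA clone series 4921, 4922, 4930, 4931, 4932 and 4933, and they were chosen by level: they reached a mean of at least 1 on the log2 RPKM scale (2 RPKM, a read count scaled for gene span and library depth) over the 3 control whole testis libraries. They were 39.2% of the 541 symbols of these series among the 25965 symbols measured. The level cut was passed by 20.8% of all symbols, and by 208 of 347 symbols (59.9%) of the 1700 series, a neighbouring set of clone names. The control libraries of whole testis therefore chose the members, and their levels in those libraries are a description.

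The libraries came from adult male mice without Tsga8, an X-linked gene expressed in spermatids (genotype Tsga8-/Y), and from control males (Tsga8+/Y), in a study of spermatid shaping and male fertility. Whole testis gave 3 knockout and 3 control libraries. Laser capture microdissection gave 2 knockout and 2 control libraries from tissue enriched for early round (steps 1 to 3) and elongated (steps 9 to 16) spermatids. It also gave 2 knockout and 2 control libraries from tissue enriched for round spermatids of steps 4 to 8. The sources used here do not give the strain, the age beyond adult or the animals behind each captured library, so p-values measure the spread between these libraries.

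A clone name marks a gene that was first known from a cDNA of a large mouse cloning project, and these series came mostly from libraries of adult testis. After meiosis, haploid round spermatids build an acrosome, and elongating spermatids then replace histones by protamines and form the tail. The X chromosome is silenced during meiosis, and in round spermatids it stays largely low, with a set of X-linked genes switched on again.

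The name "unnamed" held for part of the list. RefSeq held 186 of the 212 members, 107 under the clone symbol and 79 under a later gene name, and 26 had no match. Among those matched, 122 were protein-coding genes, 57 were long noncoding RNAs, 5 were transcribed pseudogenes and 2 were other RNAs. The named ones included spermatid and sperm genes: Eqtn (4930579C15Rik) encodes equatorin, an acrosomal membrane protein, and Armc12 (4930511I11Rik) is needed for the mitochondrial sheath of sperm. Members lay on 20 chromosomes, with 14 on the X chromosome (6.6%, against 4.2% of all symbols) and none of the 1.46% of symbols on the Y chromosome.

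The members were compact, with a median span of 4.523 kb (0.171 to 189.928 kb), and 33 had a single exon. Past the same cut, the median was 5.914 kb for the 1700 series and 10.779 kb for other symbols. Symbols of the members' own series below the cut had a median of 14.554 kb. RPKM was per length of the gene span, so the level cut itself favoured short genes. The span of 84 members (39.6%) overlapped another gene of the table, close to the 36.5% of all symbols past the cut. Of these, 77 overlapped a gene on the opposite strand. The sources used here do not say whether counting used strand, so reads of such a member and of its partner cannot be told apart.

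Levels ran over a wide range. The median member had 5.09 RPKM in control whole testis, with 57 members at 10 RPKM or more, 15 at 50 or more and 7 at 100 or more. Protein-coding members had a median of 6.63 RPKM and noncoding ones 3.74 RPKM. Behind a member's value stood 30.7 to 34416 reads per control library, with a median of 1453.

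The highest member was 4933411K16Rik, a protein-coding gene with 1 exon on chromosome 19 (chr19:42052228-42053628, mm10), which lies within Hoga1 on the same strand. It had 478, 645 and 603 RPKM in knockout testis and 375, 494 and 570.0 RPKM in control testis. These ranges overlapped, and the difference was 0.27 ± 0.19 on the log2 scale (limma, adjusted p = 0.368). Hoga1, over its longer span, averaged 27.6 RPKM in controls and differed by 0.26 ± 0.17 (limma, adjusted p = 0.327). Reads within 4933411K16Rik may be counted for Hoga1 too, so these differences may not be separate measurements.

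Next came 4930571K23Rik, with means of 263 ± 34.2 RPKM in knockout testis and 248 ± 51.1 RPKM in control testis (SD, n = 3 each), and Cabs1 (4931407G18Rik), a calcium-binding protein of spermatids. Cabs1 had 234, 306 and 247 RPKM in knockout testis, against 142, 231 and 209 RPKM in control testis. All 3 knockout values lay above the controls, but the difference of 0.45 ± 0.20 did not pass the test (limma, adjusted p = 0.176). The other members of the first 10 were Ppp1r14bl, Spem2, 4930544G11Rik, Ccer1, Clec2m, Actl11 and Fam243, at control means of 79.9 to 152 RPKM. Spem2 belongs to a family of spermatid maturation genes, Ccer1 encodes a nuclear protein of the histone to protamine exchange, and Actl11 is an actin-like protein.

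None of these 10 genes passed the test between genotypes in whole testis, where their log2 differences ran from -0.01 (Actl11) to 0.45 (Cabs1). The ranges of neighbours in the control order overlapped, except that 4933411K16Rik lay above 4930571K23Rik in every library and 4930544G11Rik (119 to 126 RPKM) above Ccer1 (87.2 to 112 RPKM). The order also depended on the length used. Over annotated exon length, Clec2m, which encodes a C-type lectin-like protein and has 5 exons over 9.632 kb, came to 498 RPKM, beside 487 RPKM for 4933411K16Rik, and 6 of the first 10 were shared between the 2 orders.

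**Figure D1:**
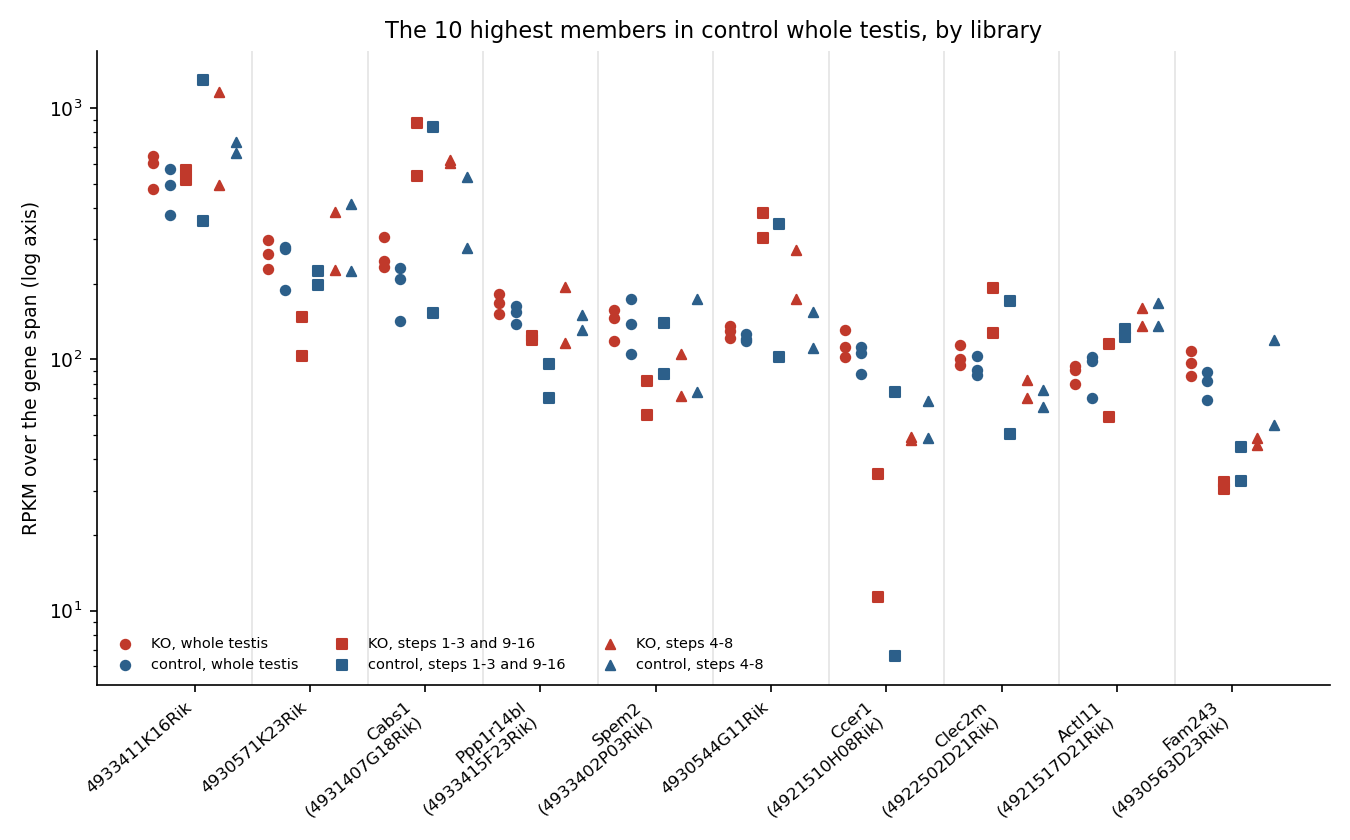
RPKM over the gene span (log axis) in each of the 14 libraries for the 10 members with the highest control whole testis level; circles are whole testis, squares steps 1 to 3 and 9 to 16, triangles steps 4 to 8, red knockout and blue control. Whole testis values of the 2 genotypes lie close together, while captured replicates spread widely, as for Ccer1 at 6.59 and 74.5 RPKM in the 2 control libraries of steps 1 to 3 and 9 to 16.

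At the level cut, the 3 members just inside were 4930599N23Rik, Maats1 (4932425I24Rik) and 4931403E22Rik, with mean log2 RPKM of 1.05, 1.04 and 1.02 in control testis. Just outside were 4933434I20Rik, 4930546G22Rik and 4930428D18Rik, with 0.99, 0.95 and 0.94. Among these, 4930428D18Rik lies on the X chromosome and had 0.821, 0.706 and 0.649 RPKM in knockout testis, against 2.04, 1.93 and 1.80 RPKM in control testis. A cut at 0 or at 2 would have taken 294 or 139 genes.

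Tsga8 had 2.62, 2.12 and 3.20 RPKM in knockout testis, against 106, 88.6 and 104 RPKM in control testis (-4.79 ± 0.13, limma, adjusted p = 3.05e-06). The values rested on 30388508 to 49147310 reads per whole testis library and 23467216 to 72022321 reads per captured library. The median SD of a member between replicates, on the log2 scale, was 0.120 in knockout and 0.125 in control testis, and 0.385 to 0.727 in the captured groups. One library stood apart, control replicate 1 of steps 1 to 3 and 9 to 16. It had 98370 RPKM summed over 12 markers of elongating spermatids, against 10980 to 30620 RPKM in the other 7 captured libraries. Prm1 and Prm2 gave most of this sum. With Prm3, Tnp1, Tnp2, Oaz3, Spem1 and Capza3, they were higher there than in those 7, while Odf1, Smcp, Gapdhs and Akap4 were not. This library also had 63.1 RPKM over 8 round spermatid markers, against 207 to 293 RPKM in those 7, and Tsga8 at 56.9 RPKM, against 209 RPKM in its replicate. Named values that rest on it are given with and without it where leaving it out moved them by over 1.5 times, and for most others too.

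Between knockout and control testis, 14 members were called higher and 14 lower (13.2% of 212), where 6.15% of the 8146 genes tested were called (4.11% higher, 2.04% lower). Calls needed an adjusted p (Benjamini-Hochberg) under 0.05 in limma on log2(RPKM + 1), a scale that understates changes of low genes. Since the cut was set on the control libraries of this comparison, members near it lean towards lower values in the knockout, and nothing is read from the share. With replicate number as a block, 26 members were higher and 17 lower. The split moved with scaling: setting every library to the same RPKM sum gave 5 higher and 13 lower, and centring on medians gave 4 higher and 17 lower. Single libraries also moved it, to 1 higher and 8 lower without control replicate 2, 1 and 9 without control replicate 3, 26 and 14 without knockout replicate 1, and 0 and 6 without knockout replicate 2 or 3.

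**Figure D2:**
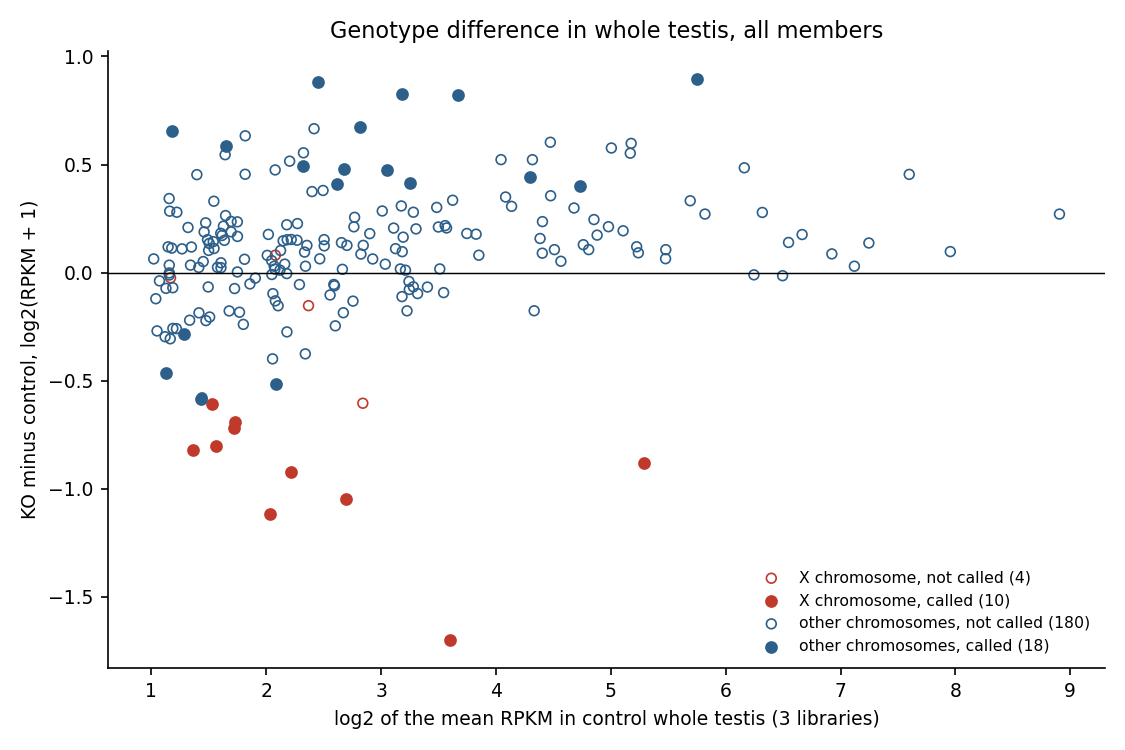
Knockout minus control difference in whole testis on log2(RPKM + 1) for each of the 212 members, against the log2 of its mean RPKM in the 3 control libraries; filled points were called at an adjusted p under 0.05, red points lie on the X chromosome. The 10 called X-linked members all lie below 0, and the called members of other chromosomes divide into 14 above and 4 below.

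The genes that fell lay mostly on the X chromosome. Of the 14 X-linked members, 10 were lower and none higher, with a median difference of -0.76, and the other 198 members gave 14 higher and 4 lower. X-linked genes outside the list gave 71 lower (41.5%) and 3 higher (1.75%) of 171 tested. A lower level in whole testis may be fewer cells of a type or less RNA per cell, which bulk samples cannot tell apart. The summed level of 8 round spermatid markers was 145 to 149 RPKM in knockout and 126 to 160 RPKM in control testis, and none of the 8 was called. The summed level of 12 elongating spermatid markers was 7120 to 9857 RPKM in knockout and 8318 to 13340 RPKM in control testis, and none of the 12 was called. Most of this sum came from Prm1, Prm2, Tnp1 and Tnp2. Prm1 and Akap4 had all knockout values below the controls, Capza3 had all above, and the others overlapped. Of 10 tested Sertoli cell markers, 2 were higher. Sums over all 12 listed were 189 to 254 RPKM in knockout and 127 to 184 RPKM in control testis, mostly from Clu and Ctsl. Of the listed Sertoli cell markers, only Sox9, Ctsl and Vim had all knockout values above the controls. Leydig cell marker sums were 64.6 to 355 RPKM in knockout and 86.0 to 143 RPKM in control testis. The part of these cell types in the result was not tested.

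The largest fall was that of 4933436I01Rik, a protein-coding gene of unknown role. It had 3.04, 3.36 and 2.71 RPKM in knockout testis, against 12.7, 13.4 and 10.4 RPKM in control testis. The groups were far apart, at 25.03% of the control mean, with a difference of -1.70 ± 0.11 (limma, adjusted p = 0.000308). It was called in all 14 alternative settings run, left-out libraries included.

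Histone H2al3 (4930557A04Rik), an H2A-like gene of a family of spermatid histone variants, was the most abundant X-linked member. It had 19.2, 24.8 and 17.5 RPKM in knockout testis, against 27.8, 44.5 and 45.1 RPKM in control testis (-0.88 ± 0.20, limma, adjusted p = 0.0468). The groups did not overlap, but the call was kept in only 8 of 14 alternative settings, and near-identical family copies could share its reads. Ube2dnl2 (4930524E20Rik), named for its likeness to ubiquitin-conjugating enzymes, had 1.51, 1.98 and 2.52 RPKM in knockout and 5.07, 4.12 and 4.77 RPKM in control testis. All knockout values lay below the lowest control (-0.92 ± 0.13, limma, adjusted p = 0.0103).

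A further pair of protein-coding members with single exons kept their call in every setting run. 4930480E11Rik had 0.970, 1.14 and 0.980 RPKM in knockout testis, against 2.64, 2.60 and 2.49 RPKM in control testis (-0.82 ± 0.06, limma, adjusted p = 0.000684). 4930402K13Rik had 1.60, 1.80 and 1.59 RPKM in knockout testis, against 3.16, 3.70 and 3.06 RPKM in control testis (-0.69 ± 0.08, limma, adjusted p = 0.0043). In both genes the groups did not overlap.

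The other 5 X-linked members that fell were 4930447F04Rik (-1.11), 4921511C20Rik (-1.05), 4931400O07Rik (-0.80), 4930567H17Rik (-0.72) and 4932429P05Rik (-0.61). In that order, they kept their call in 11, 12, 10, 8 and 8 of 13 alternative settings. RefSeq lists 4921511C20Rik as a transcribed pseudogene, and 4931400O07Rik and 4930567H17Rik as noncoding. Of the 4 X-linked members not called, 4933400A11Rik missed the threshold (-0.60 ± 0.15, limma, adjusted p = 0.0514), with 3.9, 5.04 and 4.05 RPKM in knockout and 5.74, 8.79 and 6.96 RPKM in control testis. It was called with replicate number as a block (adjusted p = 0.0173, limma), at a common RPKM sum (0.0244), with medians centred (0.0427) and with voom (0.0323). The other 3 had overlapping groups: 4933428M09Rik at -0.15, 4930550L24Rik at -0.02, and 4933402E13Rik at 0.08, which turned to -0.02 at a common RPKM sum and to -0.01 with medians centred.

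**Figure D3:**
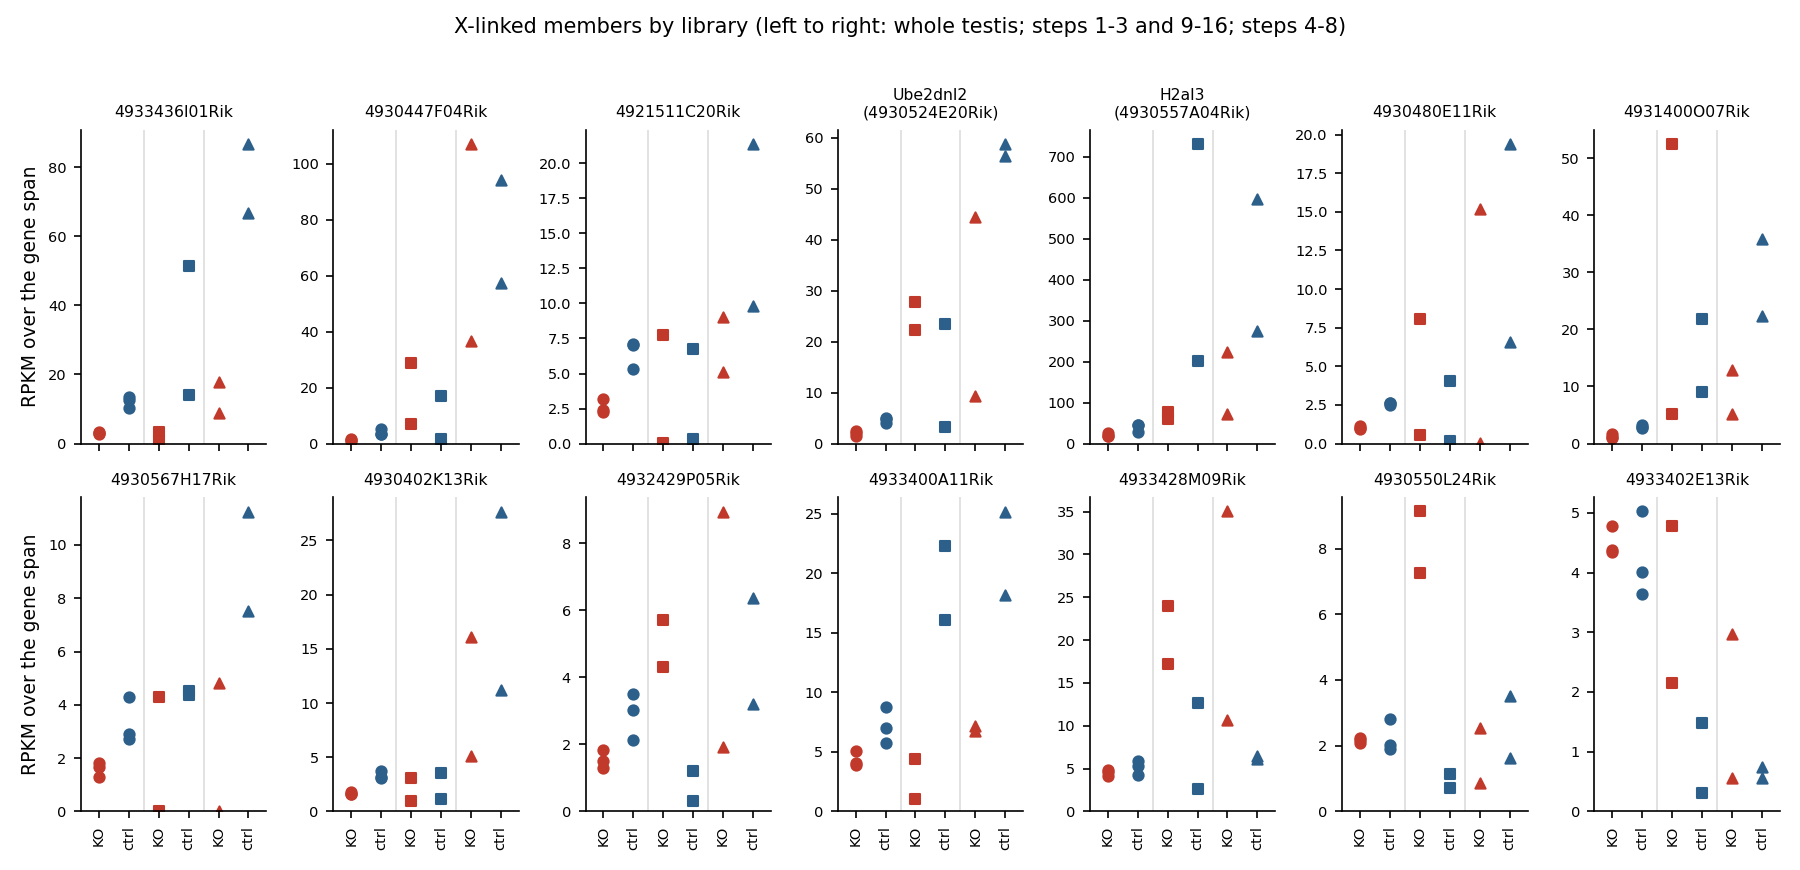
RPKM over the gene span in each library for the 14 X-linked members, ordered by their whole testis difference; in each panel the knockout stands left of its control for whole testis (circles), steps 1 to 3 and 9 to 16 (squares) and steps 4 to 8 (triangles). The whole testis groups separate in 11 of the 14 panels, with the knockout below, while captured replicates vary several-fold.

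Promoters of 4 of these genes are shown because the members fell together and their start sites could be compared. They span 250 bases before to 50 after the start, from RefSeq (GRCm38.p6), with a motif match in capitals and positions counted from the start base as 0.
4933436I01Rik, chrX:67921401-67921700, minus strand: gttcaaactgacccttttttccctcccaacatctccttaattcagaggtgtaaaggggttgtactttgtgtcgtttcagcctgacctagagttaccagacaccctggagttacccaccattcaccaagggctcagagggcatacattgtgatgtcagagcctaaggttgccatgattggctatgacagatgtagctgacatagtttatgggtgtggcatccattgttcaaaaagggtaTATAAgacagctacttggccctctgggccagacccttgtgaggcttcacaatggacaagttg
H2al3 (4930557A04Rik), chrX:9849453-9849752, plus strand: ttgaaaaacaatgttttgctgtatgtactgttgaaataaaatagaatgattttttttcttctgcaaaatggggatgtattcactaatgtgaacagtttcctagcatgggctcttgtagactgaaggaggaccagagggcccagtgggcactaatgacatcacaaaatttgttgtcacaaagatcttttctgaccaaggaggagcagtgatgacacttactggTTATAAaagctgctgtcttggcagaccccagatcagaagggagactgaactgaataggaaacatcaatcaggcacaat
4930480E11Rik, chrX:78369393-78369692, plus strand: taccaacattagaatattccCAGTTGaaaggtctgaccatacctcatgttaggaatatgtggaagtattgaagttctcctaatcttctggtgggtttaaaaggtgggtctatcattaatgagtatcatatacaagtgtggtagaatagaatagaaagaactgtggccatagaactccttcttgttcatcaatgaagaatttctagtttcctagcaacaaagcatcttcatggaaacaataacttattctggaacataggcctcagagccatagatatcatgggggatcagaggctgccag
4930402K13Rik, chrX:9104312-9104611, plus strand: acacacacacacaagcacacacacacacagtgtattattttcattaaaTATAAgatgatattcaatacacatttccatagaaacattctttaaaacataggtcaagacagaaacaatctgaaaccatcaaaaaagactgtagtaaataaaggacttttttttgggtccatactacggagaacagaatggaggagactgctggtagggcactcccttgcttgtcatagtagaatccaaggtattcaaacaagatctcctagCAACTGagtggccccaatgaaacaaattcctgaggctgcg
The capitals mark TATAA, the core of the TATA box, at position -12 of 4933436I01Rik, at -28 and -27 of H2al3 on both strands, and at -202 of 4930402K13Rik. They also mark CAGTTG, the core bound by MYB proteins, at -230 of 4930480E11Rik and at 10 of 4930402K13Rik. None of the 4 windows held TGACGTCA, the cyclic AMP response element bound in spermatids by CREM, or TGACG.

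Motifs were searched on both strands in the windows of the 157 members that had one. TATAA stood in 21.7% of them and in 24.9% of all 32851 promoters, and in 7 of 11 windows of X-linked members. This motif was added after the sequences had been seen. The 4 windows shown above were 38.3 to 47.3% G or C, against a median of 52.7% over all windows. The part of base composition in these shares was not tested. CAGTTG stood in 17.8% of member windows and 13.7% of all promoters, and in 4 of 11 on the X chromosome. TGACGTCA stood in 3 member windows (1.9%, against 1.8% of all promoters), and its first 5 letters TGACG, which also match within it, in 19.1%, against 20.8%. Of the 157 member windows, 136 lay within 100 bases of the start in the deposited table, and the farthest was 47037 bases away. A match is only a match of letters.

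The 14 members that rose lay on other chromosomes, and their changes were below 2-fold in the group means. Ccdc185 (4922505E12Rik), which encodes a coiled-coil protein, had 77.0, 130.0 and 101 RPKM in knockout testis, against 49.3, 61.9 and 49.98 RPKM in control testis. Its difference of 0.90 ± 0.19 was the largest (limma, adjusted p = 0.0384), and the knockout values were the more spread. Noxred1 (4933437F05Rik), a gene with an oxidoreductase domain, had 8.24, 13.5 and 11.0 RPKM in knockout and 3.81, 6.26 and 6.37 RPKM in control testis. The groups were separate (0.88 ± 0.21, limma, adjusted p = 0.0494).

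The rise with the lowest p was that of 4930412O13Rik, listed as noncoding in RefSeq and as protein-coding in GENCODE (chr2:9881252-9883921, mm10). It had 16.2, 17.3 and 16.8 RPKM in knockout testis, against 8.95, 10.6 and 7.68 RPKM in control testis. The 3 knockout values were tight and all above the controls (0.83 ± 0.11, limma, adjusted p = 0.00984). The gene overlaps Gata3 and 9230102O04Rik on the opposite strand, and both had higher values too. Gata3 had 1.73 RPKM in knockouts and 0.981 RPKM in controls (0.47 ± 0.07, limma, adjusted p = 0.0173). Strand use in counting is not given, so reads of the member and of these partners cannot be told apart. The promoter of 4930412O13Rik is shown because it alone among promoters of called members held the full cyclic AMP response element, in capitals at -51.
4930412O13Rik, chr2:9880996-9881295, plus strand: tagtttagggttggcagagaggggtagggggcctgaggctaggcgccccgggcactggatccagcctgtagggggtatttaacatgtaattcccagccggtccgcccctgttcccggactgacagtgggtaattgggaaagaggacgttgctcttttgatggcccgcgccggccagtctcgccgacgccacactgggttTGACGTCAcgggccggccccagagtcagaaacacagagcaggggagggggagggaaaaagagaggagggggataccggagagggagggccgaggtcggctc

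Next in size were 4933405L10Rik (0.82), Mgat4f (0.67), 4930429B21Rik (0.66), 4930556I23Rik (0.58) and Kcnmb4os2 (0.50). Mgat4f (4933406M09Rik) belongs to a family of N-acetylglucosaminyltransferases that branch glycans. Kcnmb4os2 (4933400F03Rik) lies opposite Kcnmb4, a potassium channel subunit gene, whose own difference of 0.16 ± 0.08 did not pass the test (limma, adjusted p = 0.222). The remaining 6 had differences of 0.40 to 0.48, and the call of 4930578I06Rik among them was lost with replicate number as a block. None of the 14 was called in every alternative setting: 4930412O13Rik kept its call in 11 of 14, Ccdc185 in 9 and the other 12 in 5 to 8.

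Away from the X chromosome, 4 members fell, named here after their values were seen: 4930443B20Rik, 4930474N05Rik, 4932438A13Rik and 4930584F24Rik. The first had 1.45, 1.46 and 1.47 RPKM in knockout testis, against 2.87, 2.87 and 2.36 RPKM in control testis (-0.59 ± 0.08, limma, adjusted p = 0.0075), and was called in all 13 settings run. The other 3 were less stable: 4932438A13Rik kept its call in 8 of 13 settings, and 4930474N05Rik and 4930584F24Rik in 6 of 13. 4932438A13Rik, the longest member at 189.928 kb, had 1.47, 1.06 and 1.39 RPKM in knockout testis, against 2.01, 2.03 and 2.51 RPKM in control testis (-0.46 ± 0.10, limma, adjusted p = 0.0357). The 4 had mean log2 RPKM of 1.12 to 2.08 in control testis, where the cut was 1.

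In the captured tissue, 206 members were tested, among 7857 genes, and these libraries had no part in the choice of members. In steps 4 to 8, no gene was called between genotypes (0.0%), and 10 members had an unadjusted p under 0.05, where 3.63% of all genes did. The median member difference was -0.06, against 0.01 over all genes. In steps 1 to 3 and 9 to 16, likewise no gene was called (0.0%), and 22 members had an unadjusted p under 0.05, against 6.68% of all genes. With 2 libraries a group, Tsga8 itself, at -5.79 ± 0.65 in steps 4 to 8, had an adjusted p of 0.0569 (limma).

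For the members that fell in whole testis, differences in steps 4 to 8 were mostly negative, though none was called. All 13 that could be tested had negative differences there, where 48.7% of all genes did, and in 8 both knockout values lay below both control values, against 13.6% of all genes. Among those that overlapped, 4932429P05Rik had 8.95 and 1.91 RPKM in knockouts and 3.20 and 6.37 RPKM in controls, and its difference of -0.05 turned to 0.09 at a common RPKM sum and 0.03 with voom. 4930447F04Rik had 107 and 36.8 RPKM in knockouts and 57.3 and 94.3 RPKM in controls. Of the 10 on the X chromosome, 6 separated in this way, and their median was -1.53. With single libraries of steps 4 to 8 left out, 11 or 12 of the 13 stayed negative. X-linked genes outside the list leaned the same way, with 149 of 199 negative and a median of -0.71. Of these 199, 101 had both knockout values below both control values.

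In steps 1 to 3 and 9 to 16, the same 13 were divided, with 7 negative, against 47.1% of all genes. Without the control library that stood apart, 10 of the 13 were negative. Without knockout replicate 1 of this region 9 were, and without control replicate 2 or knockout replicate 2 only 4 were, so the count rested on single libraries. The 14 members that rose in whole testis had 8 positive differences in steps 4 to 8 and 7 in steps 1 to 3 and 9 to 16.

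**Figure D4:**
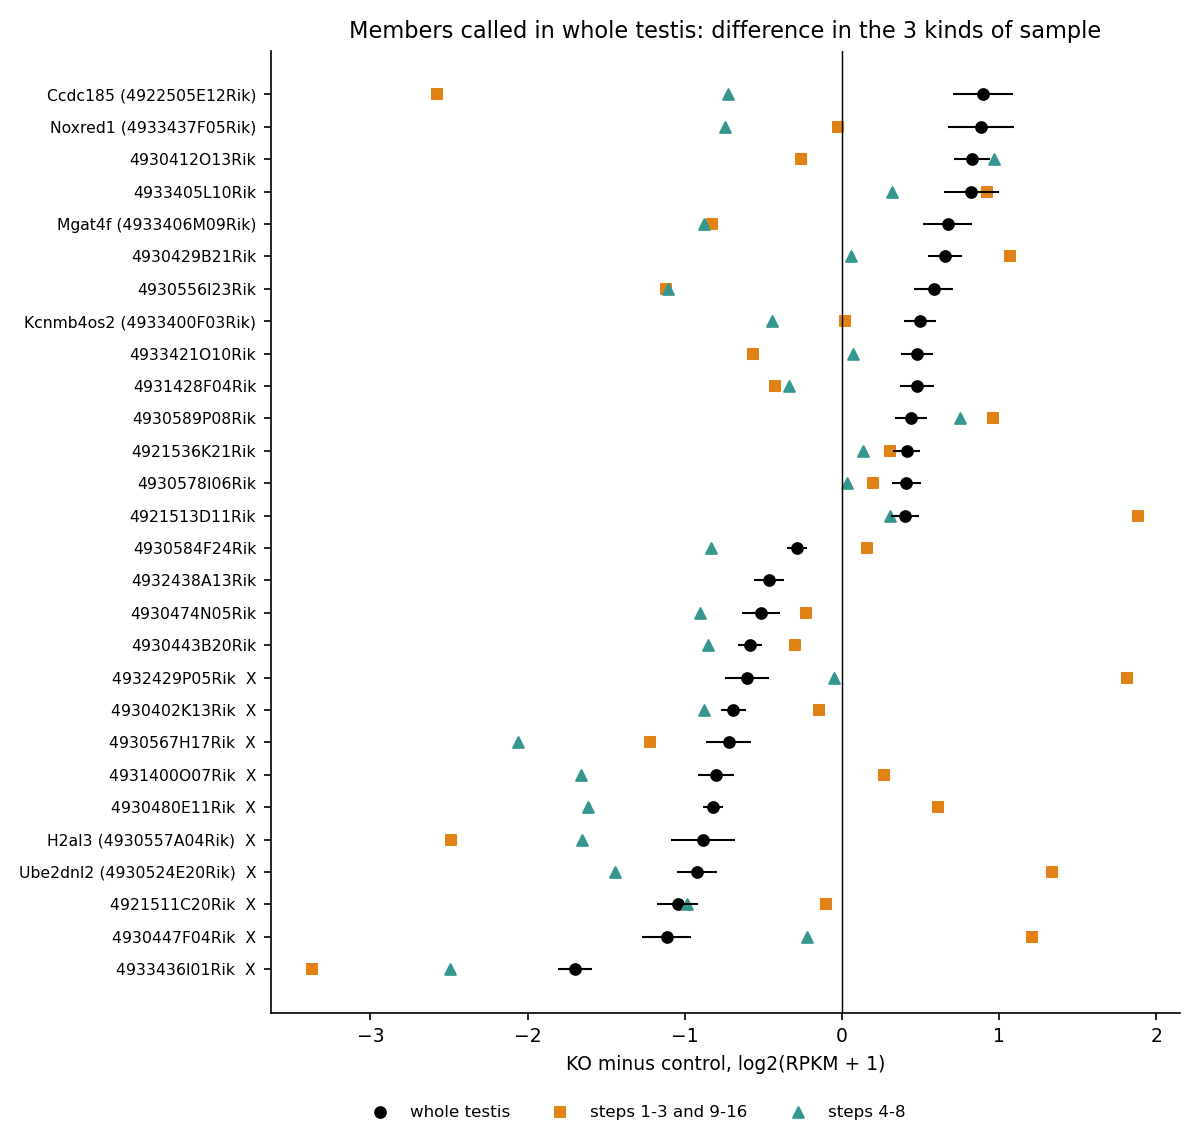
Knockout minus control difference on log2(RPKM + 1) of the 28 members called in whole testis (black circles, bars ± SE), with their differences in steps 1 to 3 and 9 to 16 (orange squares) and in steps 4 to 8 (green triangles); X marks the X chromosome. The members that fell have their triangles left of 0, while squares fall on both sides.

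Among single genes, 4933436I01Rik was low in both captured regions. It had 0.652 and 3.43 RPKM in knockouts and 14.0 and 51.4 RPKM in controls of steps 1 to 3 and 9 to 16. In steps 4 to 8 it had 17.9 and 8.88 RPKM in knockouts and 86.6 and 66.8 RPKM in controls. Knockout and control values were separate in both regions, with differences of -3.37 ± 0.73 (unadjusted p = 0.0011, adjusted p = 0.288, limma) and -2.50 ± 0.73 (unadjusted p = 0.00703, adjusted p = 0.982, limma). Without the control library that stood apart, the first difference was -4.28.

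H2al3 showed the same order. In steps 1 to 3 and 9 to 16 it had 60.5 and 76.2 RPKM in knockouts and 731 and 202 RPKM in controls, and in steps 4 to 8 it had 72.9 and 223 RPKM in knockouts and 274 and 596 RPKM in controls. Both regions had separate groups, at -2.49 ± 0.79 and -1.65 ± 0.79, and the first was -1.56 without the control library that stood apart. 4933400A11Rik, which had missed the threshold in whole testis, had 1.06 and 4.42 RPKM in knockouts and 22.3 and 16.0 RPKM in controls of steps 1 to 3 and 9 to 16 (-2.58 ± 0.55, unadjusted p = 0.00101, adjusted p = 0.283, limma), or -2.35 without that library. Its span lies opposite Mid1, a ubiquitin ligase gene listed at 0.0501 RPKM in knockout and 0.0833 RPKM in control testis.

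Other X-linked members went the opposite way in steps 1 to 3 and 9 to 16. 4930550L24Rik had 7.26 and 9.14 RPKM in knockouts and 0.720 and 1.13 RPKM in controls, the lowest unadjusted p of any member there (2.26 ± 0.47, unadjusted p = 0.000821, adjusted p = 0.269, limma), and its difference was 2.105 without the control library that stood apart. In steps 4 to 8 its groups overlapped, at 0.865 and 2.53 RPKM in knockouts and 3.52 and 1.63 RPKM in controls. 4932429P05Rik, which fell in whole testis, had 5.72 and 4.30 RPKM in knockouts and 0.304 and 1.21 RPKM in controls of steps 1 to 3 and 9 to 16. These values were separate (1.81 ± 0.61, unadjusted p = 0.0155, adjusted p = 0.573, limma), and the difference was 1.43 without that library.

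On other chromosomes, 3 members had the next lowest p-values for a higher knockout level in steps 1 to 3 and 9 to 16. Only members with separate groups were ranked. 4930433I11Rik, on chromosome 7, had 10.2 and 7.51 RPKM in knockouts and 1.65 and 1.44 RPKM in controls (1.94 ± 0.43). Phf8-ps (4921501E09Rik), listed as a pseudogene, had 19.1 and 15.2 RPKM in knockouts and 0.805 and 4.50 RPKM in controls (2.52 ± 0.57). 4921513D11Rik, which had risen in whole testis and lies within Fam82a1, had 52.5 and 40.4 RPKM in knockouts and 17.3 and 7.84 RPKM in controls (1.89 ± 0.54). In these 3, the differences were 2.00, 1.72 and 2.41 without the control library that stood apart. 4921509A06Rik, opposite Cd109, had 178 and 55.3 RPKM in knockouts and 8.47 and 16.9 RPKM in controls (2.95 ± 0.90, and 2.49 without that library).

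On the lower side, Stpg3 (4933433C11Rik) had 4.51 and 12.4 RPKM in knockouts and 42.8 and 39.5 RPKM in controls of steps 1 to 3 and 9 to 16 (-2.29 ± 0.70, and -2.24 without the control library that stood apart). The groups were far apart, though whole testis values of 34.9, 38.3 and 36.9 RPKM in knockouts lay just above 30.2, 32.03 and 32.4 RPKM in controls. 4930555K19Rik, a pseudogene of 0.171 kb, had 0 reads in both knockout libraries of that region, against 7.48 and 1.55 RPKM in controls (-2.06 ± 0.56, and -1.20 without that library). In steps 4 to 8 it had 0 and 5 reads in knockouts, against 5.36 and 4.98 RPKM in controls, and in whole testis its knockout mean of 7.74 ± 1.28 RPKM lay above the control mean of 5.01 ± 1.32 RPKM (SD, n = 3 each). None of these differences passed the test.

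In steps 4 to 8 the lowest p-values among higher members were those of 4933412E24Rik, with 2.93 and 3.12 RPKM in knockouts and 0.198 and 0.0607 RPKM in controls, and of the X-linked 4933428M09Rik, with 35.0 and 10.6 RPKM in knockouts and 6.10 and 6.51 RPKM in controls. 4930412O13Rik, which rose in whole testis, had 1.92 and 3.32 RPKM in knockouts and 0.546 and 1.13 RPKM in controls (0.97 ± 0.48). Among lower members, 4930515G01Rik had 2.71 and 3.41 RPKM in knockouts and 11.3 and 22.9 RPKM in controls, and 4930562D21Rik had 0.906 and 1.35 RPKM in knockouts and 7.57 and 9.23 RPKM in controls. Only members with separate groups were ranked here, so separation was required by the choice, and no adjusted p was below 0.905 (limma).

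The genotype difference itself was compared between the regions. No gene passed (0.0%), and 6 members had an unadjusted p under 0.05, where 2.84% of all genes did. The lowest p was that of 4930433I11Rik, whose knockout excess in steps 1 to 3 and 9 to 16 stood against 0.336 and 0.550 RPKM in knockouts and 1.58 and 3.84 RPKM in controls of steps 4 to 8 (3.24 ± 0.61, unadjusted p = 0.00041, adjusted p = 0.9996, limma). Next were 4930550L24Rik (2.68 ± 0.66) and Phf8-ps (3.05 ± 0.81). Without the control library that stood apart these 3 differences were 3.30, 2.53 and 2.24.

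Region preference leaned towards steps 4 to 8 in controls, and less so in knockouts, by an amount that moved with single libraries. No gene was called between regions in knockouts or in controls (0.0% each), and 25 members in knockouts and 33 in controls had an unadjusted p under 0.05, against 10.4% and 10.6% of all genes. The median member difference, steps 1 to 3 and 9 to 16 minus steps 4 to 8, was -0.14 in knockouts and -0.36 in controls, where all genes had 0.08 and 0.04. With single knockout libraries of steps 4 to 8 left out, the knockout median was -0.28 (replicate 1) and -0.02 (replicate 2). All genes then had -0.001 and 0.18. For steps 1 to 3 and 9 to 16 it was -0.21 and -0.02, and all genes had 0.03 and 0.09. Negative values were found for 113 of 206 members in knockouts and 137 in controls, against 45.6% and 47.6% of all genes. Leaving out single libraries gave 104 to 123 in knockouts and 122 to 144 in controls. Of all genes, 42.1 to 50.1% were then negative in knockouts and 45.2 to 51.9% in controls. In controls, the 1700 series had a median of -0.16 and the other symbols past the cut one of 0.14.

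Because each genotype had its own 4 libraries, the 2 estimates could be set side by side. In 39 members (18.9%) both libraries of steps 1 to 3 and 9 to 16 lay below both of steps 4 to 8 in each genotype, where 10.1% of all tested genes did so. The opposite order in each genotype was found for 9 members (4.37%), against 8.41% of all genes. Without the control library that stood apart, 44 members (21.4%, against 11.4%) were lower and 14 (6.80%, against 11.5%) higher. Without its replicate 55 (26.7%, against 15.7%) were lower and 24 (11.7%, against 16.3%) higher. With a single library on one side, separation is easier for every gene. Across the 206 members the differences of the 2 genotypes had a Pearson correlation of 0.585 (0.560 over all genes), a description across genes that are not independent and that share 1 fit. Without the control library that stood apart it was 0.183 (0.304 over all genes). Of the 48 members separate in both genotypes, 26 had a control difference over 1.5 times smaller without that library.

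**Figure D5:**
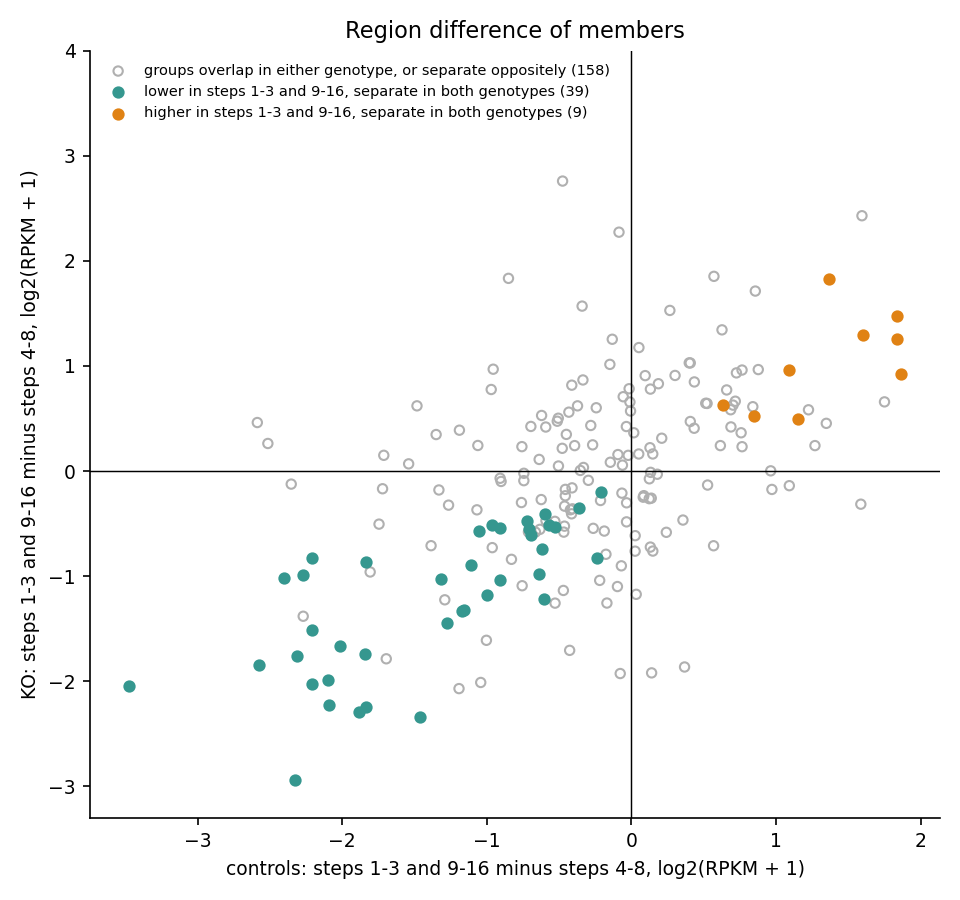
Difference between regions (steps 1 to 3 and 9 to 16 minus steps 4 to 8, log2(RPKM + 1)) in knockouts on the vertical axis and in controls on the horizontal axis, 1 point per member. Filled points are members whose 2 regions do not overlap in either genotype, 39 lower (green) and 9 higher (orange) in steps 1 to 3 and 9 to 16; the other members are open.

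Among genes higher in steps 4 to 8 in both genotypes, Adam20 (4930529F22Rik), of the ADAM family of membrane metalloproteinases, had 18.2 and 12.1 RPKM in steps 1 to 3 and 9 to 16 and 54.8 and 44.3 RPKM in steps 4 to 8 of knockouts. In controls it had 3.84 and 9.30 RPKM in steps 1 to 3 and 9 to 16 and 28.2 and 27.0 RPKM in steps 4 to 8. The regions were well apart in both genotypes (-1.67 ± 0.53 in knockouts and -2.02 ± 0.53 in controls), and the control difference was -1.47 without the library that stood apart.

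Eqtn, the acrosomal gene, differed by -1.51 ± 0.73 in knockouts and -2.21 ± 0.73 in controls, and by -1.10 in controls without that library. Tex36 (4930404H21Rik), a testis-expressed gene, had 58.1 and 29.8 RPKM in steps 1 to 3 and 9 to 16 and 81.6 and 89.3 RPKM in steps 4 to 8 of knockouts, and 5.64 and 19.6 against 61.6 and 59.9 RPKM in controls. Its control difference was -2.40 ± 0.64, and -1.58 without the library that stood apart. Lrrd1 (4932412H11Rik), a leucine-rich repeat gene, had 0.708 and 0.622 RPKM in steps 1 to 3 and 9 to 16 and 4.57 and 10.2 RPKM in steps 4 to 8 of knockouts (-2.25 ± 0.67), and 0.348 and 4.37 against 5.93 and 12.3 RPKM in controls (-1.84 ± 0.67, and -0.84 without the library that stood apart). Spata31 (4930458L03Rik), of a family needed for sperm formation, differed by -1.99 ± 1.00 in knockouts and -2.10 ± 1.00 in controls, where values of 4.07 and 69.2 RPKM stood against 72.1 and 88.2 RPKM, so that without that library the control difference was -0.20. Members without a later name stood among them too, with 4932415D10Rik at -2.94 ± 0.94 in knockouts. In controls it had 2.48 and 35.5 against 39.6 and 77.4 RPKM (-2.32 ± 0.94, and -0.63 without that library).

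The 9 members higher in steps 1 to 3 and 9 to 16 in both genotypes were led by 4930579D09Rik, Kcnmb4os2, 4933414I15Rik, 4930544D05Rik and 4933427E11Rik. Kcnmb4os2 had 8.30 and 8.19 RPKM in steps 1 to 3 and 9 to 16 and 1.25 and 2.00 RPKM in steps 4 to 8 of knockouts (1.83 ± 0.50), and 12.4 and 5.22 against 1.78 and 3.5 RPKM in controls (1.37 ± 0.50, and 0.81 without the library that stood apart). The most abundant was 4930544D05Rik, which lies opposite Chrne, at 414 and 161 RPKM in steps 1 to 3 and 9 to 16 and 102 and 108 RPKM in steps 4 to 8 of knockouts (1.30 ± 0.72). In controls it had 833 and 221 against 158 and 126 RPKM (1.60 ± 0.72, and 0.64 without the library that stood apart). The others were Cfap97, 4933440M02Rik, Lrrc71 and Tmbim7.

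The X-linked members are described here without a test of their own. In controls 13 of the 14 were lower in steps 1 to 3 and 9 to 16 (median -1.21), and in knockouts 8 were (median -0.10). Without the library that stood apart, 13 were lower in controls as well (median -1.001). The knockout count rested on single libraries: leaving out 1 knockout library at a time gave 6 to 10 lower, with medians from -1.191 to 0.223. Of the 14, 3 separated in both, 4930447F04Rik, 4930402K13Rik and 4933436I01Rik. X-linked genes outside the list were lower for 76 of 199 in knockouts and 127 in controls. No X-linked member was called in the test between the regions' genotype differences. 4930447F04Rik had 28.7 and 7.06 RPKM in steps 1 to 3 and 9 to 16 and 107 and 36.8 RPKM in steps 4 to 8 of knockouts, and 1.48 and 17.1 against 57.3 and 94.3 RPKM in controls.

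Captured and whole testis libraries were made with different kits, so their levels were set side by side without a test. The ratio of the mean of the 4 captured control libraries to the control whole testis mean had a median of 1.34 over the members, 2.42 over the 1700 series and 0.627 over the other symbols past the cut. It was 2.89 for X-linked members. Without the library that stood apart, the medians were 1.24, 2.08 and 0.612, and 3.32 for X-linked members. The highest ratio, 11.5, was that of H2al3 (451 RPKM captured, 39.1 RPKM whole testis), followed by 4930447F04Rik at 10.4. Without that library these ratios were 9.13 and 13.7. The lowest, 0.0215, was that of 4930579G18Rik, which lies opposite Acin1, at 0.0974 RPKM in captured and 4.53 RPKM in whole testis controls (0.0279 without that library).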

How the data were processed

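The authors deposited 1 table of log2 RPKM values for 25965 symbols in 14 libraries. Reads had been handled with HISAT2 2.1.0, Trim Galore 0.4.0 and FastQC against mm10, per the submitters' processing notes; counting tool, annotation and strand use: not given in the sources used here. Per the labels' protocols, whole testis went through a directional kit and captured tissue through SMART-seq2. Each RPKM was per length of the gene span with its introns, so compact genes stand higher than long ones with as many transcripts. Genes with 0 reads had been entered as 0.9 read. With these spans, 99.99% of values lay within 0.05 of a whole read.

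The log2 values were raised back to RPKM. limma 3.58.1 (R 4.3.3), with an intensity trend, was fitted on log2(RPKM + 1) over all genes with at least 1 RPKM in at least 3 of 6 whole testis libraries (8146 genes), or in at least 2 of 8 captured libraries (7857 genes, 4 group means in 1 fit). Tests were two-sided, p-values were adjusted over all genes tested, with a threshold of 0.05. Values are RPKM, log2 differences ± SE, or means ± SD. The code was tested on simulated data. No pair of replicates agreed within sampling noise.

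Same-numbered whole testis libraries of the 2 genotypes deviated together, with correlations of 0.329, 0.362 and 0.148. Differently numbered ones ran from -0.442 to 0.299. Pairing by number was thus possible but not settled, and a fit with replicate number as a block was run beside the unblocked one.

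Named members were the 10 highest, those at the cut, all on the X chromosome, and, per comparison and direction, up to 8 called members with the largest difference or up to 5 with the lowest p, groups not overlapping. The members and lists were chosen with earlier results of these data known. Annotations were matched in RefSeq (GRCm38.p6) and GENCODE.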

Additional observations from a re-analysis of the deposited data

How the results depend on the processing

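Alternatives were another scaling, a pseudocount of 0.1 or 4, no filter, a mean of at least 5 RPKM, limma voom on recovered reads, a replicate block, and leaving out single libraries. In whole testis, 14 members were higher and 14 lower. Higher calls fell to 5 with libraries scaled to a common sum, 4 with median centring, 0 without a filter (4 lower) and 4 with voom (19 lower), and came to 26 with the replicate block (17 lower). With a mean of at least 5 RPKM, 112 members were tested and 3 were lower. Leaving out single libraries gave 0 to 26 higher and 6 to 21 lower. Of the 14 called lower, 14 were among those called lower with median centring, voom and the block, and 12 with a common sum. The calls of 4 members held in every setting run: 4933436I01Rik, 4930443B20Rik, 4930402K13Rik and 4930480E11Rik. Scaling to a common sum moved the median of all genes by about 0.1 on the log2 scale: to 0.00 in whole testis, where it was 0.09, to 0.13 in steps 4 to 8, where it was 0.01, and to 0.18 in steps 1 to 3 and 9 to 16, where it was 0.04. In captured tissue no member was called in any setting run.

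Signs turned for members with differences near 0 or with unlike replicates. In whole testis, 4933402E13Rik was at -0.016 with a common sum, -0.01 with median centring, -0.006 with voom and -0.001 to 0.188 without single libraries, and 4930550L24Rik at -0.101 to 0.098. In steps 4 to 8, 4932429P05Rik was at 0.092 with a common sum, 0.017 with a pseudocount of 4, 0.034 with voom and -0.937 to 0.837 without single libraries. There, leaving out single libraries also gave -0.98 to 0.536 for 4930447F04Rik, -3.611 to 0.382 for 4930480E11Rik, -0.886 to 0.035 for 4930550L24Rik and -0.083 to 1.271 for 4933402E13Rik. In steps 1 to 3 and 9 to 16, 4921511C20Rik was at 0.013 with a pseudocount of 4 and 4931400O07Rik at -0.242 with voom. Leaving out single libraries there gave -1.644 to 1.444 for 4921511C20Rik, -0.684 to 0.388 for 4930402K13Rik, -1.289 to 1.823 for 4931400O07Rik, -0.671 to 1.899 for 4930480E11Rik and -0.228 to 2.642 for 4930447F04Rik. Their causes were not tested.

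In captured tissue, replicate numbers only name the libraries, with correlations of same-numbered deviations from -0.087 to 0.197 over 2 libraries a group. A replicate block by number left the count of called members at 0, and a block by number within genotype was run for the region differences and their interaction only, since it leaves no estimate of the genotype differences. The counts of separate members, the correlation and the ratios without single captured libraries were chosen after seeing the data. Members had a median SD (log2) of 0.385 to 0.423 in 3 captured groups, and of 0.727 in the group with the control library that stood apart; the part of depth in the captured results was not tested.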
